A study of Homo sapiens with 4 samples.

Results

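The regions described here are the peaks of an m6A map that lie in the interior of human chromosomes 16, 17 and 22, which rank among the chromosomes richest in genes. A peak is a stretch where 1 antibody-enriched RNA library holds more fragments than the library it was called against. The members are all listed peaks on these 3 chromosomes that start beyond the first 5 Mb and end before the last 5 Mb, by hg19 coordinates. They number 486 of the 4889 peaks of the series, with 126 on chromosome 16, 256 on chromosome 17 and 104 on chromosome 22. The choice used position only, and no measured value.

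The series holds 4 libraries of HEK293 cells, a human embryonic kidney line, made by MeRIP-seq, in which fragmented RNA is pulled down with an antibody against N6-methyladenosine (m6A) and sequenced. The slow group (n = 2) expressed a slow-elongating mutant form of RNA polymerase II (RNAPII), and the WT group (n = 2) is the control labelled wild type. Both groups, controls included, were given 1 µg/ml doxycycline for 24 h, followed by 42 h of doxycycline plus 2.5 µg/ml α-amanitin, a toxin that blocks RNAPII. How the expressed polymerase of either group responds to the toxin is not described here. The labels name neither separate cultures nor clones behind the 2 libraries of a group, so any spread between them may be technical, and they do not name the promoter that drove the polymerase. Each slow library was set against the same-numbered WT library, in both directions, which gives 2 pairs and 4 lists of peaks. A slow-higher peak is one where the slow library held more fragments, and a WT-higher peak one where the WT library did. No input RNA entered the calls, so a listed peak does not separate a difference in methylation from a difference in the level of the transcript.

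m6A is written on nascent and maturing mRNA by a methyltransferase complex with METTL3 as its catalytic subunit and METTL14 as its partner, mostly at adenosines in a short preferred sequence context. In mature mRNA the mark is known to be frequent in long exons and around stop codons, and it is read by YTH-domain proteins and removed by the demethylases FTO and ALKBH5. Because the writer acts while RNAPII is still transcribing, the speed of elongation is a setting in which the placement of m6A can be studied.

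In the tables of RefSeq for GRCh38.p14, chromosome 17 carries 14.1 protein-coding genes per Mb between its first and last gene, chromosome 16 carries 9.48 and chromosome 22 carries 8.88. These are ranks 2, 4 and 5 among 23 chromosomes. The 3 chromosomes hold 2474 of 19974 protein-coding genes (12.4%). With their ends included, they held 294 of 1810 and 194 of 1316 slow-higher peaks on the same 23 chromosomes in pairs 1 and 2 (16.2% and 14.7%), and 13.7% and 15.0% of the WT-higher peaks. With chromosome Y, the mitochondrial genome and contigs counted too, the slow-higher shares were 15.6% and 14.0%. Their share of peaks was thus above their share of genes in all 4 lists. In the WT-higher list of pair 1 the excess was within counting error, as the exact binomial interval of 11.5% to 16.1% includes the share of genes. In the WT-higher list of pair 2 the interval starts at 12.44%, just above the 12.39% of genes. These gene counts are from a newer build than the peaks and say nothing of single regions. No gene is named for a region, because no annotation of hg19 was used here.

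Depth differed between the groups. After the caller had removed duplicates, the slow libraries kept 698050 and 547402 reads and the WT libraries kept 1695246 and 1136611, so that WT was deeper by 2.43 and 2.08 times. The slow libraries had begun with 16417503 and 8804552 reads and the WT libraries with 20556035 and 15072336. Duplicates made up 96% and 94% of the slow reads and 92% and 92% of the WT reads. Most reads of every library were thus discarded, with the larger share in slow, which limits all values given here. The larger library of a pair was scaled down to the smaller. At the summit of a WT-higher peak, WT fragments are given whole, as before that scaling. Folds are the authors' values after it, computed as (pileup + 1) over (background + 1). A background is the local level the caller took from the opposing library, on the scale of the smaller library, so that 1 WT fragment counts as less than 1 in a WT background. The fold of a WT-higher peak runs WT over slow. Intervals in brackets are 95% binomial intervals by the exact Clopper-Pearson method. They cover counting error only, and peaks close to each other can come from 1 transcript.

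More peaks in these interiors were slow-higher than WT-higher in both pairs. There were 181 slow-higher and 101 WT-higher peaks in pair 1, a slow-higher share of 64.2% (58.3% to 69.8%), where all listed peaks of the pair gave a background of 67.3%. Pair 2 held 126 slow-higher and 78 WT-higher peaks, a share of 61.8% (54.7% to 68.5%) beside a background of 66.2%. The mean share was 63.0% ± 1.71 (SD, n = 2 pairs). An exact two-sided sign-flip permutation test of the share against 50% gave p = 0.5, which is the smallest that 2 pairs can give, so no comparison over pairs could pass a threshold of 0.05. The share of the members was near the background: it was lower than that of all other peaks by 3.48 and 4.88 percentage points, a mean difference of -4.18 ± 0.996 (exact sign-flip p = 0.5). The sign of this difference turned, to 0.801 with whole chromosomes, 4.97 without chromosome 16 and 0.656 against other peaks without chromosomes 19, X, Y, the mitochondrial genome and contigs. Counted as loci, in which peaks of 1 list no more than 20 kb apart count once, there were 118 slow-higher and 81 WT-higher loci in pair 1 and 88 and 67 in pair 2. The slow-higher share was then 59.3% and 56.8%.

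The 3 chromosomes differed in direction. The interior of chromosome 17 had 114 slow-higher and 37 WT-higher peaks in pair 1 (75.5% slow-higher, 67.8% to 82.1%) and 79 and 26 in pair 2 (75.2%, 65.9% to 83.1%). That of chromosome 22 had 41 and 16 in pair 1 (71.9%, 58.5% to 83.0%) and 27 and 20 in pair 2 (57.4%, 42.2% to 71.7%). That of chromosome 16 had 26 and 48 in pair 1 (35.1%, 24.4% to 47.1%) and 20 and 32 in pair 2 (38.5%, 25.3% to 53.0%), so WT-higher peaks were the more frequent there in both pairs. The mean slow-higher share on chromosome 16 was 36.8% ± 2.35 (exact sign-flip p = 0.5 against 50%), and in pair 2 its interval reaches past 50%.

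Without chromosome 17 the slow-higher share of the remaining interiors averaged 49.3%, and without chromosome 16 the share of the others averaged 72.1%. Chromosome 16 was also low when each autosome was counted beyond its first 5 Mb only. It then had the second lowest slow-higher share of 22 autosomes in pair 1 and the third lowest in pair 2. Of these 22 autosomes 5, among them chromosome 16, lay below 50% in both pairs and 15 lay above 50% in both.

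**Figure D1:**
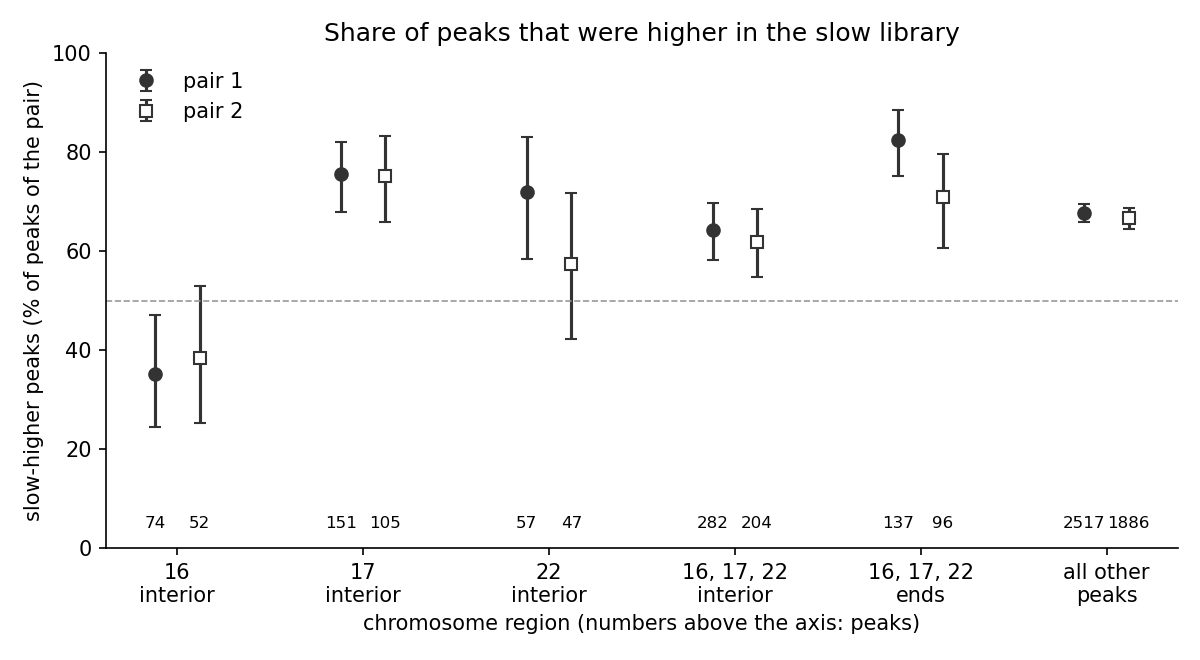
Share of peaks that were slow-higher, in percent of the peaks of a pair, for the interior of each chromosome, the 3 interiors together, the 5 Mb ends of the 3 chromosomes and all other peaks of the series. Points are pairs, bars are exact 95% intervals, numbers above the axis are peaks, and the dashed line is at 50%; chromosome 16 lies below that line in both pairs, at 35.1% and 38.5%, and chromosome 17 above it, at 75.5% and 75.2%.

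The excess of WT-higher peaks on chromosome 16 was not seen among the peaks that recurred. A peak is called recurring if it overlaps, by at least 1 bp, a peak of the same direction in the other pair. On chromosome 16, 13 slow-higher and 8 WT-higher peaks recurred in each pair, a slow-higher share of 61.9%, so the direction turned. The remaining WT-higher peaks of that chromosome were listed in 1 pair only.

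The direction also changed along the chromosomes. On chromosome 16, the window from 30 to 40 Mb held 13 slow-higher and 3 WT-higher peaks in pair 1 and 13 and 4 in pair 2, which is 81.25% (54.4% to 95.9%) and 76.5% (50.1% to 93.2%) slow-higher. The rest of its interior held 13 and 45 peaks in pair 1 and 7 and 28 in pair 2, which is 22.4% (12.5% to 35.3%) and 20% (8.44% to 36.9%). Counted as loci, the window held 8 slow-higher and 2 WT-higher in pair 1 (80%, 44.4% to 97.5%). In pair 2 it held 8 and 4 (66.7%, 34.9% to 90.1%), so both intervals reach below 50%. The rest of the interior had 24.4% and 22.6% by loci. All peaks of the window lay before base 31805665 or ended there. Of the 13 recurring slow-higher peaks of the chromosome in each pair, 8 lay in this 10 Mb window, and 0 recurring WT-higher peaks did. Between 70 and 80 Mb of chromosome 16 there were 3 slow-higher and 11 WT-higher peaks in pair 1 and 1 and 9 in pair 2. The longest interval without any peak ran from base 31805665 to base 52473667 of chromosome 16, or 20.7 Mb, and spans its centromere.

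On chromosome 17, all peaks of the interior from 70 Mb on were slow-higher, 39 in pair 1 and 29 in pair 2. The exact intervals for these shares of 100% run down to 91.0% and 88.1%. Counted as loci they were 20 and 16, all slow-higher, with intervals down to 83.2% and 79.4%. Before 70 Mb there were 75 slow-higher and 37 WT-higher peaks in pair 1 and 50 and 26 in pair 2, or 67.0% and 65.8% slow-higher. The window from 40 to 50 Mb was the other large contributor, with 29 slow-higher and 10 WT-higher peaks in pair 1 and 21 and 7 in pair 2. On chromosome 22 the window from 20 to 30 Mb held 20 and 7 in pair 1 and 16 and 6 in pair 2, while from 40 to 50 Mb it held 4 and 4, and 4 and 7. The chromosome 22 interior was thus mostly slow-higher in this window and not in its last, in both pairs.

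The density of slow-higher peaks had the same order as their share. Per Mb of interior, chromosome 17 held 1.60 and 1.11 slow-higher peaks in pairs 1 and 2 and 0.520 and 0.365 WT-higher peaks. Chromosome 22 held 0.993 and 0.654 slow-higher and 0.387 and 0.484 WT-higher peaks. Chromosome 16 held 0.324 and 0.249 slow-higher and 0.597 and 0.398 WT-higher peaks. Between the chromosomes the slow-higher density ranged more widely than the WT-higher density in both pairs. The lengths used are the whole interiors, 80.4, 71.2 and 41.3 Mb for chromosomes 16, 17 and 22. No stretch without peaks was taken off, such as 20.7 Mb on chromosome 16 or that before the first peak of chromosome 22 at base 17076052. Densities of the 3 chromosomes are therefore compared with this limit.

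The ends that the choice of members left out had higher slow-higher shares than the interiors, a difference that was not tested. Against 64.2% and 61.8% in the interiors, the outer 5 Mb of the 3 chromosomes held 113 slow-higher and 24 WT-higher peaks in pair 1 (82.5%, 75.1% to 88.4%) and 68 and 28 in pair 2 (70.8%, 60.7% to 79.7%). On chromosome 16 the interior and the ends lay on opposite sides of 50%: the interior had 35.1% and 38.5% and the ends had 77.6% and 62.8% slow-higher peaks. Whole chromosome 16 averaged 52.4%. The peaks nearest to the limit on either side were these. On chromosome 16 the first member was chr16:5075051-5075189, WT-higher in pair 2 with a fold of 7.06, and the last peak before the limit was chr16:4810600-4810718, slow-higher in pair 1 with a fold of 7.30. At the far end of chromosome 17 the last member was chr17:76180472-76180595, slow-higher in pair 2 with 3 fragments and a fold of 3.77, and the next peak outside was chr17:76837144-76837293, slow-higher in pair 2 with 13 fragments and a fold of 9.45. At the far end of chromosome 22 they were chr22:45946285-45946400 inside (fold 5.83) and chr22:46434344-46434513 outside (fold 5.66), both slow-higher.

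A larger share of slow-higher than of WT-higher members was found again in the other pair. Of the slow-higher members, 78 of 181 in pair 1 (43.1%, 35.8% to 50.7%) and 80 of 126 in pair 2 (63.5%, 54.4% to 71.9%) recurred, beside a background over all listed peaks of 44% and 63.1%. Of the WT-higher members, 18 of 101 in pair 1 (17.8%, 10.9% to 26.7%) and 18 of 78 in pair 2 (23.1%, 14.3% to 34.0%) recurred, beside a background of 29.9% and 38.5%. The difference between the directions was 25.3 and 40.4 percentage points, with a mean of 32.8 ± 10.7 (exact sign-flip p = 0.5). The slow-higher shares lay near the background, and the WT-higher shares lay below it. Of the other WT-higher peaks 31.4% (28.3% to 34.8%) recurred in pair 1 and 40.4% (36.5% to 44.3%) in pair 2, and their intervals do not overlap those of the WT-higher members in either pair. The 2 pairs count the same overlaps from either side, so they are not separate evidence. The difference between WT-higher members and other WT-higher peaks was not tested.

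In all 4 lists 0 members overlapped a peak of the opposite direction in the other pair. A count of 0 allows a share of up to 1.66% and 2.38% of the slow-higher and 2.97% and 3.85% of the WT-higher members (3 peaks of the list), beside a background of 0 of all listed peaks.

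In the slow-higher lists recurrence went with the strength of the call. Of the slow-higher members with a −log10 q of at least 10, 43 of 66 in pair 1 (65.2%) and 48 of 60 in pair 2 (80.0%) recurred, and of those below 5, 5 of 21 and 4 of 15 did. The other slow-higher peaks showed the same pattern, with 64.8% and 80.5% at 10 or more and 24.3% and 35.0% below 5. Of the WT-higher members of pair 1, 9 of 22 with a −log10 q of at least 10 recurred (40.9%), 4 of 40 between 5 and 10 and 5 of 39 below 5. In pair 2 the WT-higher counts were 4 of 18, 9 of 37 and 5 of 23 (22.2%, 24.3% and 21.7%). There the strongest calls did not recur more often than the rest. The other WT-higher peaks of pair 2 had 54.8%, 35.4% and 34.6% in these bands, so among them the strongest calls did recur more often. In pair 1 they had 47.5%, 26.3% and 26.1%. The difference between members and other peaks by band was not tested. By chromosome, 8 of 48 and 8 of 32 WT-higher peaks recurred on chromosome 16, 5 of 37 and 5 of 26 on chromosome 17, and 5 of 16 and 5 of 20 on chromosome 22.

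**Figure D2:**
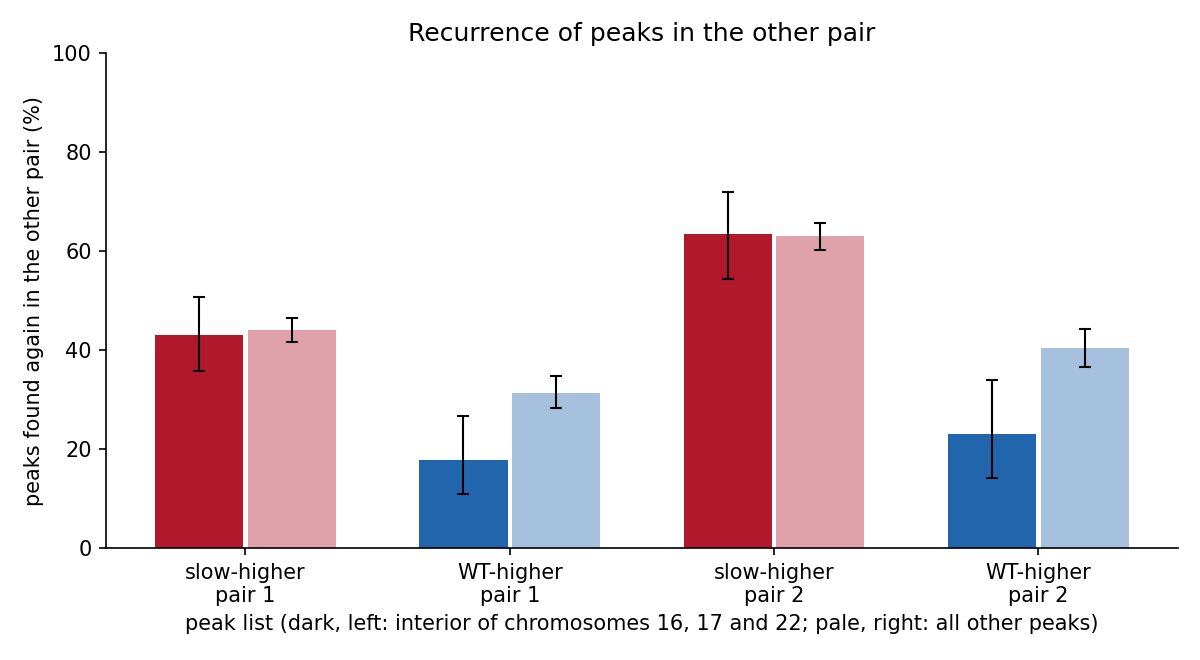
Share of peaks of each list, in percent, that overlap a peak of the same direction in the other pair, with members as dark bars on the left, all other peaks of the series as pale bars on the right, and exact 95% intervals. The slow-higher bars of members and other peaks stand at nearly the same height, 43.1% and 44.1% in pair 1, and the WT-higher bars of members are lower than those of other peaks, 17.8% and 31.4% in pair 1.

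Joined across the pairs, the recurring members form 96 regions: 78 slow-higher, of which 13 are on chromosome 16, 47 on chromosome 17 and 18 on chromosome 22, and 18 WT-higher, of which 8, 5 and 5 are on these chromosomes. The slow-higher share of regions was 81.25% (72.0% to 88.5%), beside 74.4% (71.5% to 77.1%) of the regions elsewhere and 75% of all regions. The median fold of the slow-higher regions was 7.17 in pair 1 and 6.88 in pair 2, below the 7.94 and 7.64 of slow-higher regions elsewhere. The WT-higher regions had medians of 7.14 and 7.38, beside 7.21 and 7.10 elsewhere. A fold of at least 10 in both pairs was reached by 9 of 78 slow-higher regions (11.5%, 5.41% to 20.8%), beside a background of 20.5% of all slow-higher regions, and by 1 of 18 WT-higher regions (5.56%), beside 8.52%. None of the 18 slow-higher regions of chromosome 22 reached it.

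The folds of the 2 pairs went together across regions, with Pearson's r of 0.68 for log2 folds and Spearman's rho of 0.57 over the 78 slow-higher regions, and 0.67 and 0.57 over the 18 WT-higher regions. These are descriptions across regions of the same 4 libraries, and regions are not independent replicates. The summits of the pairs lay a median of 13.5 bp apart in slow-higher regions and 5.5 bp apart in WT-higher regions. They were within 50 bp of each other in 64 of 78 and 13 of 18.

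**Figure D3:**
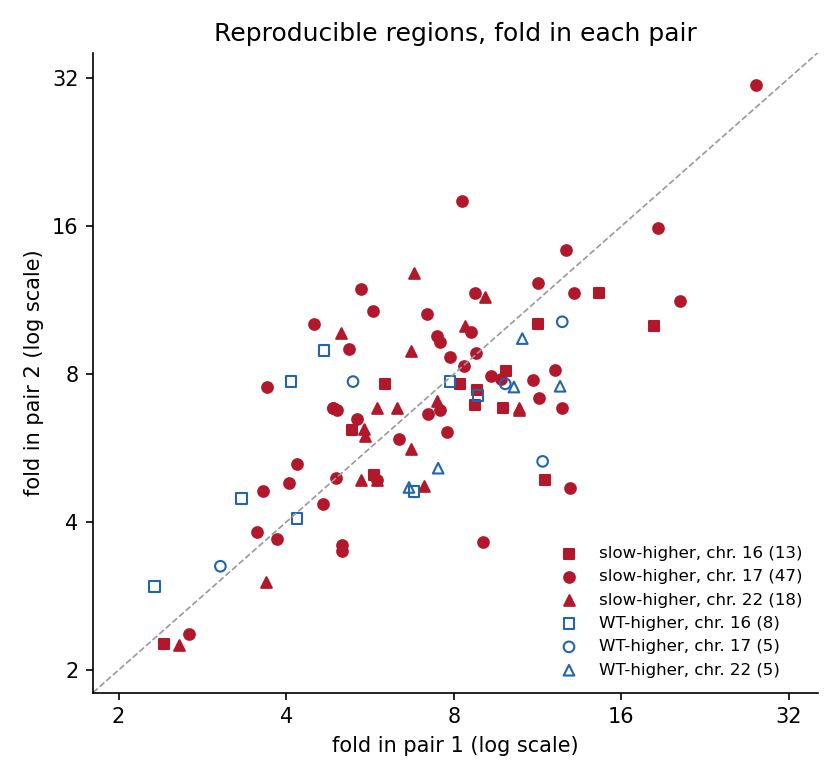
Fold of each of the 96 reproducible regions in pair 1 and in pair 2, on logarithmic axes, with the dashed line marking equal folds; a slow-higher fold is slow over WT and a WT-higher fold is WT over slow. Filled symbols are the 78 slow-higher and open symbols the 18 WT-higher regions, with shape giving the chromosome; the point at the upper right is the chromosome 17 region with folds of 28.0 and 30.9.

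The region with the highest fold in both pairs was slow-higher, at chr17:74722528-74723335. The slow libraries of pairs 1 and 2 held 73 and 65 fragments at its summit, against WT backgrounds of 1.65 and 1.13, which gave folds of 28.0 and 30.9. It is 808 bp wide, 1 of the widest in these interiors, and its summits lay at bases 74722968 and 74722961.

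A further 4 of the 8 slow-higher regions with the highest lower fold lay next to each other within 3 kb of chromosome 17. At chr17:74070382-74071279 the slow libraries held 33 and 25 fragments, against WT backgrounds of 0.824 and 0.639 (folds 18.6 and 15.9). At chr17:74071465-74072023 they held 23 and 22, against 0.824 and 0.963 (folds 13.2 and 11.7), with summits 332 bp apart. At chr17:74072227-74072627 the slow libraries held 39 and 32, against 0.965 and 1.93 (folds 20.4 and 11.3), and at chr17:74073062-74073288 they held 38 and 34, against 2.06 and 1.44 (folds 12.7 and 14.3). In each of these 4 regions both slow libraries held at least 22 fragments, and the scaled WT background did not exceed 2.06.

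The other high slow-higher regions lay elsewhere and had fewer fragments. At chr17:26603032-26603485 the slow libraries held 15 and 12 fragments, against WT backgrounds of 0.412 and 0.0597 (folds 11.3 and 12.3). Chromosome 16 contributed chr16:68278624-68278988, with 14 and 11 fragments against 0.030 and 0.0251 (folds 14.6 and 11.7), and chr16:31805456-31805665, with 15 and 14 against 0.412 and 0.482 (folds 11.3 and 10.1). On chromosome 22 the region with the highest lower fold was chr22:21385610-21386004, with 12 and 16 slow fragments against WT backgrounds of 0.430 and 0.482 (folds 9.09 and 11.5). The scaled WT background was below 1 at all 4 regions, so the added 1 made up most of the divisor of each fold. The region at chr16:31805456-31805665 is the last peak before the long interval without peaks on chromosome 16.

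Among WT-higher regions the first by its lower fold was chr17:37916147-37916352, where the slow background was 0.0983 and 0.417 fragments in pairs 1 and 2, against 31 and 28 WT fragments at the summit (folds, WT over slow, 12.5 and 10.2). It was the 1 WT-higher region of at least 10-fold in both pairs. On either side of it lay chr17:37915776-37916001, with slow backgrounds of 0.0846 and 1.00 against 28 and 20 WT fragments (folds 11.6 and 5.32), and chr17:37921094-37921346, with 0.141 and 0.140 against 25 and 16 (folds 9.90 and 7.64). These 3 regions stand within 6 kb of each other, and all had WT counts far above the slow background in both pairs.

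Chromosome 22 supplied 3 of the 8 highest WT-higher regions. At chr22:18979692-18980210 the slow background was 0.141 and 0.278 fragments, against 27 and 23 WT fragments (folds 10.6 and 9.45), with summits 206 bp apart in the 2 pairs. At chr22:41487745-41487941 it was 1.27 and 2.00, against 66 and 45 (folds 12.4 and 7.56), and at chr22:35661298-35661521 it was 0.141 and 0.0278, against 26 and 14 (folds 10.3 and 7.53). On chromosome 16 the highest were chr16:58078999-58079228, with 2.00 and 1.00 against 55 and 30 (folds 7.88 and 7.72), and chr16:22337132-22337511, with 2.00 and 2.00 against 62 and 43 (folds 8.84 and 7.24). Pair 1 had the higher fold in each of these 8 WT-higher regions. The fold takes the scaled WT pileup, so equal whole fragment numbers in the 2 groups do not correspond to a fold of 1.

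Slow-higher peaks had smaller median widths than WT-higher peaks as deposited. The median width was 143 and 152.5 bp in the slow-higher and 176 and 168 bp in the WT-higher lists of pairs 1 and 2. The difference was -33 and -15.5 bp, with a mean of -24.25 ± 12.4 bp (exact sign-flip p = 0.5). The smallest width in each list equals the fragment length to which the caller extended the reads of that library and was 116 and 124 bp in the slow libraries, shorter than the 141 and 139 bp of the WT libraries. With this length taken off, the medians were 27 and 28.5 bp for slow-higher and 35 and 29 bp for WT-higher members, and the difference shrank to -8 and -0.5 bp. The part of fragment length in the width difference was not tested further.

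At the smallest possible width stood 31 of 181 and 28 of 126 slow-higher members (17.1% and 22.2%; background 17.3% and 17.2%) and 12 of 101 and 9 of 78 WT-higher members (11.9% and 11.5%; background 10.1% and 9.62%). At the other end, 10 and 7 slow-higher members (5.52% and 5.56%; background 7.22% and 8.17%) and 1 and 3 WT-higher members (0.990% and 3.85%; background 3.17% and 3.68%) were at least 400 bp wide. The medians of members were below those of other peaks in all 4 lists: other slow-higher peaks had medians of 152 and 164 bp, and other WT-higher peaks 177.5 and 177 bp. Chromosome 16 differed from the rest in pair 2, where slow-higher peaks had a median of 180 bp and WT-higher peaks one of 158.5 bp, while in pair 1 they had 167.5 and 172.5 bp.

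The widest slow-higher peaks were chr17:74070382-74071267 in pair 1, with 886 bp and a fold of 18.6, and chr17:43226935-43227632 in pair 2, with 698 bp and a fold of 3.81. The widest WT-higher peaks were chr22:18979724-18980210 in pair 1, with 487 bp and a fold of 10.6, and chr22:35660684-35661127 in pair 2, with 444 bp and a fold of 8.94. The last of these lies just beside the reproducible region at chr22:35661298-35661521 and did not itself recur.

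**Figure D4:**
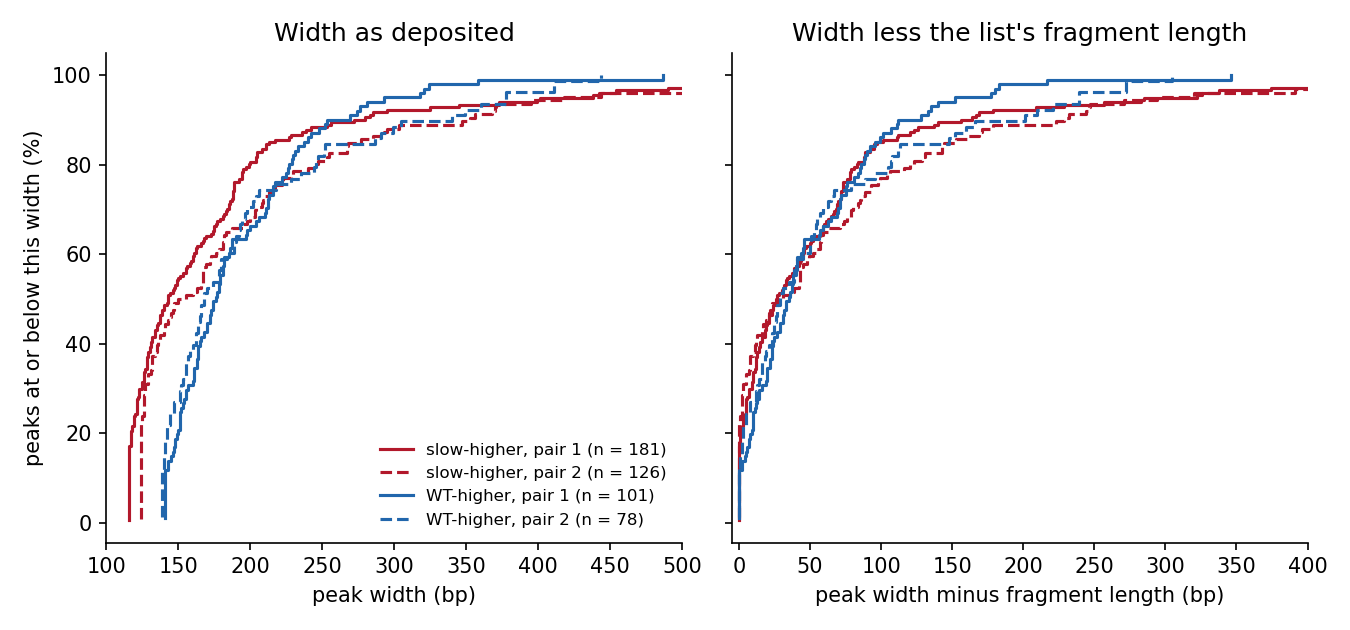
Cumulative share of members, in percent, at or below a peak width in bp as deposited (left) and after the fragment length of the list is taken off (right), for the 4 lists. The slow-higher curves start before the WT-higher curves on the left, where medians are 143 and 152.5 bp against 176 and 168 bp, and all 4 start at 0 and run close together on the right; the few widest peaks lie beyond the end of the axes.

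The height of the peaks depended on the scale. As deposited, the median summit pileup was 14 and 12 in the slow-higher and 11.5 and 14.4 in the WT-higher lists, so the difference was 2.47 in pair 1 and -2.45 in pair 2 and changed sign between the pairs (mean 0.010 ± 3.48, exact sign-flip p = 1). In whole fragments the medians of slow-higher members were 14 and 12 against 28 and 30 of WT-higher members, lower in the slow-higher list by 14 and 18, as the deeper WT libraries then count unscaled. Slow-higher members held 3 to 106 fragments in pair 1 and 3 to 102 in pair 2, and WT-higher members held 9 to 153 and 10 to 133. Slow-higher members had median folds of 6.12 and 6.69 and WT-higher members of 6.65 and 6.64, each lower than in the other peaks of its list, which had 6.68 and 6.83, and 6.92 and 7.06. A fold of at least 10 was reached by 11.6% and 15.9% of slow-higher members, against 19.6% and 21.6% of other slow-higher peaks, and by 9.90% and 7.69% of WT-higher members, against 11.5% and 12.2% of other WT-higher peaks.

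The highest pileups did not have high folds. The slow-higher peak with most fragments in both pairs lies at chr17:43226906-43227656, with 106 fragments against a WT background of 29.2 in pair 1 (fold 3.54), and at chr17:43226935-43227632 with 102 against 26.01 in pair 2 (fold 3.81). The WT-higher peak with most fragments lies at chr17:48226712-48226881, where the slow background was 20 against 153 WT fragments in pair 1 (fold 3.05), and at chr17:48226709-48226861, where it was 19 against 133 in pair 2 (fold 3.25). Both places were thus well covered in slow and WT libraries alike, and the difference recurred. Elsewhere the opposing library was often nearly empty. On the scale of the smaller library, the background was at most 1, with 0.01 allowed for rounding, for 55.8% and 62.7% of slow-higher members. Of the WT-higher members, 67.3% and 52.6% had such a background. Taking every slow-higher peak of the series, 58.0% in pair 1 and 69.0% in pair 2 met this limit. Taking every WT-higher peak, 70.2% in pair 1 and 67.9% in pair 2 did. The shares of members were thus lower in all 4 lists. Only for WT-higher members of pair 2 did the interval (40.9% to 64.0%) exclude the share of the whole list. This difference was not tested.

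A larger share of slow-higher than of WT-higher peaks stood in clusters. A cluster is a chain of at least 3 peaks of 1 list, each no more than 20 kb from the next. Clusters held 63 of 181 slow-higher members in pair 1 (34.8%, 27.9% to 42.2%; background 37.7%) and 40 of 126 in pair 2 (31.7%, 23.7% to 40.6%; background 36.3%). They held 10 of 101 WT-higher members in pair 1 (9.90%, 4.85% to 17.5%; background 12.3%) and 6 of 78 in pair 2 (7.69%, 2.88% to 15.99%; background 11.5%). The difference was 24.9 and 24.0 percentage points, with a mean of 24.5 ± 0.602 (exact sign-flip p = 0.5). These shares lay near the background, so clustering by direction is a property the members shared with the other peaks of the series. Peaks of a list with more members also stand closer together, and the part of list size in this difference was not tested.

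There were 17 slow-higher clusters in pair 1 and 12 in pair 2, of which 13 and 8 are on chromosome 17 and 2 and 2 on each of chromosomes 16 and 22. WT-higher clusters numbered 3 and 2. The median distance from a summit to the nearest summit of its list was 8.37 and 21.8 kb for slow-higher and 269.7 and 219.9 kb for WT-higher members.

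Directions seldom mixed. Within 20 kb of a peak of the opposite direction in the same pair stood 3 and 2 slow-higher members (1.66% and 1.59%; background 1.27% and 1.3%). The same held for 1 and 2 WT-higher members (0.990% and 2.56%; background 1.64% and 2.4%). These shares lay near the background, but with 1 to 3 peaks per list they are too few to compare members with other peaks. Chained over all 4 lists, the members form 266 groups, of which 3 hold both directions and 0 hold both in both pairs. The share of such groups over all listed peaks was not computed, so this count is a description only. Of these 3, chr17:7284428-7292958 has slow-higher peaks in both pairs, 3 in pair 1 and 2 in pair 2, and then 1 WT-higher peak of pair 1 at chr17:7292722-7292958.

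The largest cluster was slow-higher and spans 4.88 kb at chr17:74070382-74075262. It holds 8 slow-higher peaks in pair 1, with folds of 5.84 to 20.4 and a median of 10.5, and 7 in pair 2, with folds of 5.89 to 18.0 and a median of 11.7. Of these, 6 of 8 and 7 of 7 recurred, and 4 of the highest slow-higher regions named above are in it. Its folds were highest in the first part in pair 1, while in pair 2 the highest was at chr17:74073829-74074083, with 43 slow fragments against a WT background of 1.44. The same place in pair 1 had 38 slow fragments against 3.71 (fold 8.29). The last peak of the cluster was lower in both pairs, with folds of 6.38 and 5.89.

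**Figure D5:**
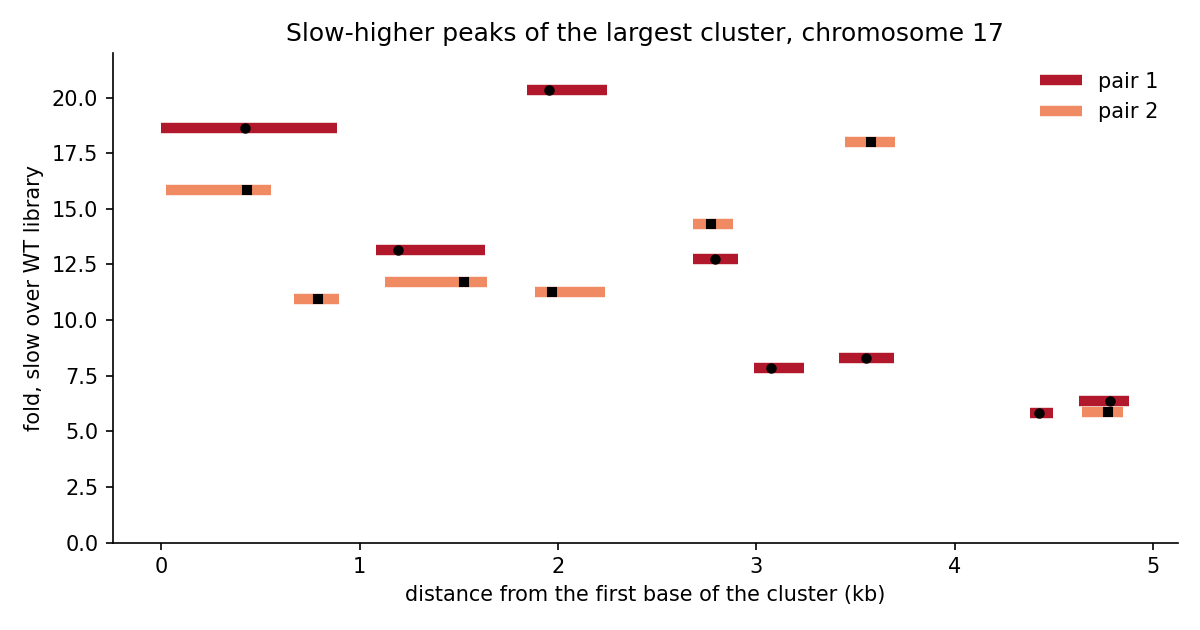
Slow-higher peaks of the largest cluster on chromosome 17, drawn as segments from their first to their last base at the height of their fold (slow over WT), against the distance in kb from the first base of the cluster; black marks are summits. The 8 peaks of pair 1 and 7 of pair 2 cover much the same places between 0 and 4.88 kb, with folds of 5.84 to 20.4 and 5.89 to 18.0.

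Of the other slow-higher clusters of at least 4 peaks, 3 had 3 recurring peaks of 4 in pair 1. At chr17:48912332-48918180 there were 4 peaks in pair 1 (folds 4.85 to 9.71) and 3 in pair 2 (4.88 to 7.80), at chr17:43225819-43227656 there were 4 (2.80 to 3.86) and 3 (3.70 to 4.63), and at chr22:21799323-21804623 there were 4 (3.37 to 5.54) and 3 (3.03 to 5.98). The other 3 were less alike in the 2 pairs. At chr17:73266311-73268264 there were 5 slow-higher peaks in pair 1 (folds 3.48 to 9.07) and 2 in pair 2 (8.83 to 9.32). At chr17:41008281-41026568 there were 4 in pair 1 (4.94 to 9.54) and 1 in pair 2 (6.75). The cluster at chr17:16389452-16397219 had 4 slow-higher peaks in pair 1, of 4 to 5 fragments each, and 0 in pair 2, so it did not recur.

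The 1 WT-higher cluster of this size, at chr17:37915776-37922466, held 4 peaks in pair 1 with folds of 7.20 to 12.5 and 3 in pair 2 with folds of 5.32 to 10.2, and contains the 3 neighbouring WT-higher regions described above. None of these 8 clusters held a peak of the opposite direction in either pair.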

How the data were processed

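The members and the groupings were chosen with earlier results of these data known. TopHat2 aligned the reads to hg19, per the submitters' processing notes, with a version not given in the sources used here. MACS 2.1.1.20160309 called the peaks from reads of 65 bp with a q limit of 0.01, 1 read per position and no pooling of replicates, per the file headers. The deposited pileup is a coverage signal, scaled down by the authors for WT, the larger library of each pair. WT pileups divided by the scaling factor lay within 0.0121 of whole fragments. The deposited fold is a ratio with a pseudocount of 1. The authors' p-values and q-values are −log10 in 2 columns whose names were lost, told apart by order and by the first being larger in all 4889 peaks. Background was computed from pileup and fold. Coordinates are 1-based hg19.

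Lists were compared over the 2 same-numbered pairs with an exact two-sided sign-flip permutation test, using Python 3.11.15, numpy 2.4.6, pandas 2.3.3 and scipy 1.17.1. A region joins overlapping peaks of 1 direction from both pairs without an opposite peak, and its fold is that of its highest peak. Regions named are, per direction, the 8 with the highest lower fold of the 2 pairs and the first of each chromosome, per list the widest and highest peak, every chain of at least 4 peaks, and any chain with both directions in both pairs. Others are named as limits, neighbours or mixed groups. On simulated data of 1000 peaks per list, 6 of 6 combinations of overlap rule and direction returned the 300 shared peaks planted. In the same check 40 of 40 chains were found. The shared peaks were planted with nearly full overlap, so this checks the code only and not the accuracy on these data. The depth of 547402 to 1695246 reads per library limits the precision. Alternatives were thresholds on q and fold, chromosome ends, chromosomes and pairs left out, loci, overlap rules and chaining distances.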

Additional observations from a re-analysis of the deposited data

Results flagged for a closer look

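The direction of peaks differed between chromosome interiors in both pairs, by values on opposite sides of 50% whose difference was not tested. The interior of chromosome 16 had 35.1% and 38.5% slow-higher peaks in pairs 1 and 2, while that of chromosome 17 had 75.5% and 75.2% and that of chromosome 22 had 71.9% and 57.4%. The ends of chromosome 16 had 77.6% and 62.8%. Within chromosome 16, the window from 30 to 40 Mb had 81.25% and 76.5% slow-higher peaks, against 22.4% and 20% in the rest of its interior, and this difference was not tested either. Counted as loci, the window had 80% and 66.7%, with exact intervals that reach below 50%. The windows were looked at after the low share of the chromosome had been seen. Among the peaks of the chromosome 16 interior that recurred, the share was 61.9%, beside 75% slow-higher among all regions of the series. Slow-higher peaks recurred more often than WT-higher peaks over all listed peaks too.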

How the results depend on the processing

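Over 104 alternatives, 62 values stayed close to the reported one, 31 moved and 11 turned in sign or crossed 50%. A value counted as close if it differed from the reported one by less than the SD between the 2 pairs. Region counts were judged by their ratio. That SD was 0.602 points for clustering and 14.4 points for slow-higher recurrence, so the limit differed between results. Except for region counts, leaving out 1 pair always stays within this SD. Such values could only stay close, turn in sign or cross 50%. The cause was not tested where none is plain from the alternative itself. Values are means over pairs, and ranges in brackets are from leaving out 1 pair. All comparisons ran within pairs by construction. These comparisons, the sign-flip tests included, are themselves paired. Beyond them, no paired analysis was possible because no fit over unpaired library values was made to which a block could be added. The slow-higher share (61.8% to 64.2%) was 69.5% for a −log10 q of at least 5, 67.4% for whole chromosomes, 72.1% without chromosome 16, 49.3% without chromosome 17, 58.0% for loci and 55.4% without clusters. Its difference from other peaks (-4.88 to -3.48 points) was -0.923 for a −log10 q of at least 5, 0.801 for whole chromosomes, 4.97 without chromosome 16, -17.8 without chromosome 17, -1.75 for loci, 0.656 against peaks without chromosomes 19, X, Y, the mitochondrial genome and contigs, and -0.925 against peaks beyond 5 Mb. The share on chromosome 16 (35.1% to 38.5%) was 30.6% without clusters, 46.8% for a −log10 q of at least 5, 52.4% for the whole chromosome, 21.2% without the window from 30 to 40 Mb and 61.9% for recurring peaks. WT-higher recurrence was 27.0% for whole chromosomes and 15.9% for 50% reciprocal overlap, and the difference in recurrence was 20.8 points without clusters; with 1 pair nothing can recur. Slow-higher regions numbered 121 for whole chromosomes and 31 without chromosome 17, and WT-higher regions 10 for a −log10 q of at least 5, 31 for whole chromosomes and 10 without chromosome 16; 1 pair alone gives its peak counts, 126 to 181 and 78 to 101. The width difference (-33 to -15.5 bp) was -4.25 bp with fragment length taken off. The pileup difference (-2.45 to 2.47) was -0.490 above the depth ratio, -1.40 for whole chromosomes, -0.863 without chromosome 17 and -16 in whole fragments. The clustering difference (24.0 to 24.9 points) was 27.2 for a −log10 q of at least 5, 21.3 without chromosome 16, 17.8 without chromosome 17, 27.9 without chromosome 22, 21.6 at 5 kb and 42.0 at 100 kb. The fragment length, the removal of clusters and all alternatives for chromosome 16 were chosen after seeing the data. Slow-higher peaks of 3 fragments are listed, so at this depth small folds at little-covered places were not detectable.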
